A study of Mus musculus with 8 samples.

Results

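The 237 genes described here are those of mouse chromosome 17 with a mean signal above 1000 over 8 expression arrays, each represented by its brightest probe set. They were taken from 17097 genes that the arrays measure, 784 of them on chromosome 17. The chromosome was chosen by the measured log2 differences between both groups of these same arrays, and the genes by their mean signal, so all differences between the groups below are a description and carry no p-value. The samples are RNA of mouse acute myeloid leukaemia (AML) cell lines labelled as expressing Hoxa9, a leukaemia-promoting homeobox gene. By the labels, the cells of the Trib1 hi group (4 arrays) express Hoxa9 and Trib1. Those of the Trib1 null group (4 arrays) express Hoxa9 alone by the labels. Signals of Hoxa9 and of the brighter Trib1 probe set (below) went against the Trib1 hi label, those of Trib1 below 500 throughout. Both groups trace back to leukaemia in homozygous Trib1 knock-out mice. They were grown without treatment in IMDM medium, with the cytokine IL-3 at 5 ng/ml and serum at 10%. The labels do not say how Hoxa9 and Trib1 were introduced, whether each line is a clone, or whether replicate arrays stand for different cultures or animals. The spread between arrays may therefore be technical, and line and Trib1 status cannot be told apart.

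Mouse chromosome 17 carries the t-complex region near its centromere and, farther along, the major histocompatibility complex (MHC), called H2 in the mouse, whose class I and class II molecules display peptides to T cells. Around and beyond the MHC lie genes of every general function of a cell, among them ribosomal proteins, splicing factors, signalling kinases, cell cycle genes and mitochondrial enzymes. Trib1 itself, a pseudokinase through which C/EBP alpha is marked for degradation, and Hoxa9 are encoded on other chromosomes.

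The promoters of 4 genes are shown, chosen after their values were seen: Zfp947 and Wdr43 ran against the chromosome's trend, and Lrg1 and Dusp1 were far below it. Each sequence runs from 250 bases before to 50 bases after the annotated start, 5' to 3' on the gene's own strand, from RefSeq on GRCm38.p6. Zfp947 is at chr17:22165928-22166227 on the minus strand, Wdr43 at chr17:71615965-71616264 on the plus strand, Lrg1 at chr17:56121897-56122196 on the minus strand and Dusp1 at chr17:26508423-26508722 on the minus strand. Capitals mark matches on either strand to any of 4 motifs: the C/EBP-ATF composite element TGATGNAA, the C/EBP site TTGCGNAA, the E-box CACGTG and the cAMP response element TGACGTCA; the last 2 were added after the sequences had been seen.
Zfp947: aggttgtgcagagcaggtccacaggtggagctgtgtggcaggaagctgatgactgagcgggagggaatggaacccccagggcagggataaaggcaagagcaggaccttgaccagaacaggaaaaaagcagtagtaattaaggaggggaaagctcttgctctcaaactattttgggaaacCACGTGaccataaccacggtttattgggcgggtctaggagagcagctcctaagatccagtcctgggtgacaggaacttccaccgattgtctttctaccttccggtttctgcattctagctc
Wdr43: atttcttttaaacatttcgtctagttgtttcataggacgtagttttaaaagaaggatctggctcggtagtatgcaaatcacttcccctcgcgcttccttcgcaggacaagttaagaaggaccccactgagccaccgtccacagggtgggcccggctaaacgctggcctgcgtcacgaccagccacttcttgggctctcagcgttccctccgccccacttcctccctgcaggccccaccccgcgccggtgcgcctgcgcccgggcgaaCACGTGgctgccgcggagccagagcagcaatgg
Lrg1: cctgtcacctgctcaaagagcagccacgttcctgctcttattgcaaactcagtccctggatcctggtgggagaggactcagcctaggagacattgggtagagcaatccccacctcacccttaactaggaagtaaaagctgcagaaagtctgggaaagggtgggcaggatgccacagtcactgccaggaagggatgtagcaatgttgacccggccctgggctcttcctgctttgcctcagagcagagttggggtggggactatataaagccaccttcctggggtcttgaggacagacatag
Dusp1: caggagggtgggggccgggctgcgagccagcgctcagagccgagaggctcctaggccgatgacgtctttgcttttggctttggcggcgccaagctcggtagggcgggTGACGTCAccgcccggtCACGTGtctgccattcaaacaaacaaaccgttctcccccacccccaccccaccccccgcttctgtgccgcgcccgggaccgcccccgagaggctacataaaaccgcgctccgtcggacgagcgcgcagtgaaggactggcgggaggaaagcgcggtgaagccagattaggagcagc
Zfp947 and Wdr43 each hold 1 E-box, Dusp1 holds 1 E-box and 1 cAMP response element, and Lrg1 holds no match to these letters. The E-box stood in 34 of the 201 members whose promoters matched by gene ID (16.9%), against 8.09% of the 27025 genes in the table and 7.15% of its 32851 promoters. The cAMP response element stood in 9 of the 201 (4.48%), against 2.03% of genes and 1.79% of promoters. The C/EBP-ATF element stood in 2 of the 201, against 4.51% of genes and 3.97% of promoters, and the C/EBP site in 0 of the 201, against 0.918% and 0.798%. The members are bright genes, and no share was taken for bright genes of other chromosomes. A trait of chromosome 17 therefore cannot be told from one of bright genes in general. Of the 15 genes that ran against the trend, 11 matched; 4 of them held an E-box and 0 held any of the other 3 motifs. Zfp947 and Wdr43 are among the 15, and the E-box was added after their sequences had been seen. Its count among these genes therefore supports nothing by itself. A match is a stretch of letters and shows no binding.

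The arrays differed at low signal. Their 90th percentiles were close, 1808 to 1985, whereas the median ran from 3.71 to 68.3, highest on Trib1 hi 3, and 17.7% to 23.2% of probe sets read above 500. Signals below 500 are therefore not compared, and a fold whose dimmer group reached below 500 is given as "at least", with those signals set to 500. Trib1, by its brighter probe set, had signals of 304, 223, 212 and 206 in the group labelled Trib1 null but 7.13, 7.13, 122 and 5.92 in the group labelled Trib1 hi, against the label and below 500 throughout. Its other probe set read 16.7, 3.81, 4.43 and 2.93 in the Trib1 null group and 2.99, 2.57, 28 and 2.68 in the Trib1 hi group, with overlap. Hoxa9 signals were 969, 1075, 1031 and 1020 in the Trib1 null group and 14.3, 14.3, 391 and 10.0 in the Trib1 hi group, also against that group's label. The position of either gene's probe set against the deleted or introduced sequence was not analysed here, so they do not check the labels, and each direction below is that of the labels. Of 10 myeloid marker genes, 8 read above 500 on all arrays, and their summed signal was 73610 to 106444 in the group labelled Trib1 hi and 89029 to 107056 in the other. All 5 T cell, 4 B cell, 3 erythroid and 5 stromal markers on the array read below 500 on all arrays, as did 4 of 5 megakaryocyte and 4 of 5 endothelial markers.

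Most chromosome 17 genes had a slightly lower signal in the group labelled Trib1 hi. The median log2 difference (Trib1 hi minus Trib1 null, on log2 of the signal plus 2.71) of the 237 genes was -0.49, a 1.40-fold lower signal, and the quartiles were -0.87 and -0.17. Differences were below 0 for 201 genes (84.8%, against 47.8% of all genes tested) and above 0 for 36. The 3823 genes of the other chromosomes above the same signal had a median of 0.05, with quartiles of -0.27 and 0.33 and 45.3% below 0. In 167 of the 237 genes (70.5%) every Trib1 hi array read below every Trib1 null array; the same held for 27% of the bright genes elsewhere and 15.8% of all 12250 genes tested. The opposite held for 15 genes (6.33%), against 25.8% elsewhere and 13.5% of all genes tested, and in the other 55 the groups overlapped. The limma fit over all genes called 165 members lower and 17 higher at an adjusted p under 0.05, where 19.7% of all genes tested were called lower and 11.1% higher, and 24.8% and 29% of the bright genes elsewhere. Without Trib1 hi 3, 30 members were called higher. Because this contrast chose the chromosome, those counts support nothing by themselves.

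The shift was seen on each array. The median deviation of the 237 genes from the mean of the Trib1 null arrays was -0.40, -0.44, -0.62 and -0.44 on Trib1 hi arrays 1 to 4. It was -0.08, 0.06, 0.02 and 0.01 on Trib1 null arrays 1 to 4, so the groups did not overlap. Genes of the other chromosomes had medians of 0.14, 0.13, -0.16 and 0.11 on the Trib1 hi arrays, lowest on array 3, where bright signals were lower in general. Taken against the other chromosomes on the same array, chromosome 17 lay at -0.54, -0.57, -0.46 and -0.55 on the Trib1 hi arrays and between -0.01 and 0.01 on the Trib1 null arrays. Array 3 was thus the lowest before this subtraction and the highest of its group after it. Over the 19 other chromosomes, medians ran from -0.18 to 0.10. The lowest was chromosome 8, where 43.6% of 218 genes were lower without overlap, and the lowest such share was 20.6%.

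**Figure D1:**
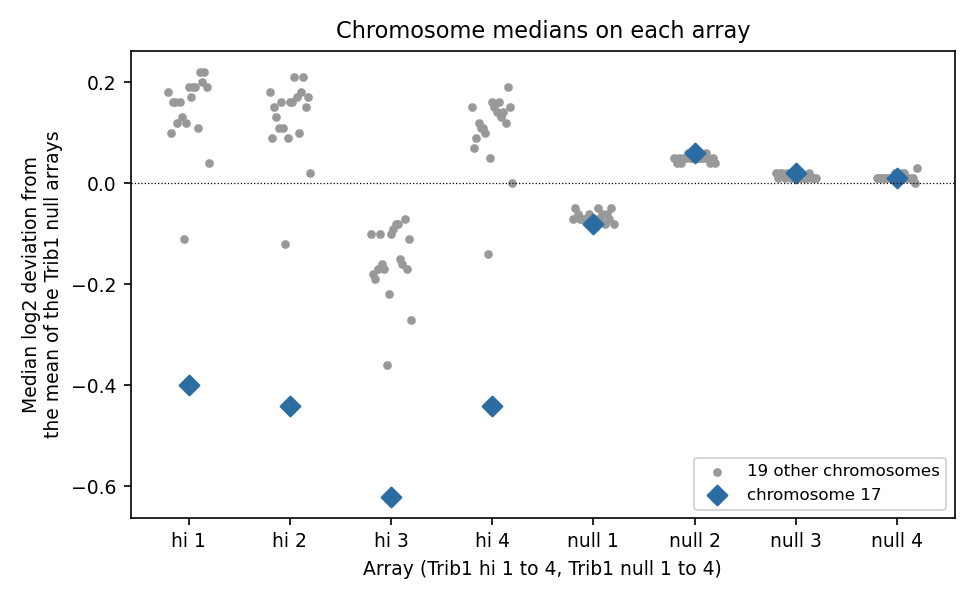
Median log2 deviation of bright genes from the mean of the Trib1 null arrays (vertical axis) on each of the 8 arrays (horizontal axis), for chromosome 17 (diamonds, 237 genes) and for each of 19 other chromosomes (grey points). Chromosome 17 lies between -0.62 and -0.40 on the Trib1 hi arrays, below all other chromosomes on the same array, and among them on the Trib1 null arrays.

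The lower signals ran along the whole chromosome. In order of gene start on GRCm38.p6, cut into fixed 10 Mb windows, each of the 9 windows that hold members had a median below 0, from -0.62 to -0.22. The first window (0 to 10 Mb, 13 genes) had a median of -0.44 and no gene above 0. Sft2d1, a membrane protein of Golgi transport, was typical of it: it read 2872, 2710, 2351 and 2583 on the Trib1 hi arrays and 3347, 3778, 3692 and 3466 on the Trib1 null arrays, a difference of -0.44. Its groups did not overlap, whereas Tfb1m, a mitochondrial ribosomal RNA methyltransferase and the least changed gene of the window (-0.09), overlapped. The lowest was Tmem181b-ps, a transcribed pseudogene with close copies nearby that its probe set may also read, at least 4.49-fold lower (411 ± 269.8 against 2521 ± 221, SD, n = 4 each).

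The second window (10 to 20 Mb, 11 genes) was the shallowest, with a median of -0.22, 7 genes below 0 and 4 above. Sod2, the mitochondrial superoxide dismutase, stood at its median: 4654, 4942, 3984 and 5152 against 5106, 5762, 5487 and 5320, with overlap. Counting only its genes with a mean signal above 2000, the median was 0.01. Acat3, an acetyl-CoA acetyltransferase, had its lowest fitted difference at -1.64 (561, 507, 766 and 645 against 1869, 1803, 2081 and 1896, 3.12-fold lower). Map3k4, a kinase of the stress-activated pathways with 2 Trib1 hi arrays below 500, was at least 2.57-fold lower; without Trib1 hi 3 its fitted difference (-1.85) passed that of Acat3 (-1.74). Chd1, a chromatin remodeller, was at -1.12.

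The third window (20 to 30 Mb, 56 genes) had a median of -0.50 with 53 genes below 0, 41 of them without overlap. Mrps34, a mitochondrial ribosomal protein, was typical: 3101, 3452, 2597 and 3300 against 4334, 4484, 4295 and 4503, or -0.51. The lowest was Dusp1, a phosphatase that switches off MAP kinases and whose promoter is shown above. It read 45.9, 18.6, 482 and 218 on the Trib1 hi arrays and 1949, 2052, 1941 and 2014 on the others, at least 3.98-fold lower. All 4 Trib1 hi values were under 500, so the fitted -4.28 has no firm size. The lipid transporter Abca3 was at least 3.01-fold lower (514 ± 221 against 1780 ± 60.6).

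The fourth window (30 to 40 Mb, 65 genes), which holds the MHC, had the lowest median, -0.62, with 57 genes below 0 and 49 lower without overlap. Dhx16, a splicing helicase, was typical at -0.62 (1180, 1477, 1365 and 1322 against 1960, 2098, 2033 and 2112). Counting only genes with a mean signal above 2000, its median was -0.55 and that of the sixth window lower, -0.60. The median of the 55 genes of the window without an H2 symbol was -0.61, and the 172 genes outside the window had a median of -0.43. These splits were chosen after the values had been seen. Znrd1, a subunit of RNA polymerase I, read 1684, 1531, 1579 and 1605 against 4842, 5385, 5221 and 4973, 3.19-fold lower. Gpsm3, a modulator of G protein signalling, read 503, 507, 865 and 529.8 against 1938, 2039, 1956 and 2032, 3.41-fold lower, and the zinc finger gene Zfp414 was at least 3.27-fold lower.

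The fifth window (40 to 50 Mb, 28 genes) had a median of -0.33 and, beside 16 genes lower without overlap, 8 genes above 0. Tomm6, a subunit of the outer mitochondrial import pore, lay near its median at -0.39 (10712, 10588, 7254 and 10429 against 10991, 13476, 12749 and 13224), but its other bright probe set, at a mean signal of 1318, had a difference of -1.16. Tnfrsf21, a death receptor of the tumour necrosis factor family, had the lowest fitted difference and was at least 2.93-fold lower (582 ± 167 against 1748 ± 61.1). The sixth window (50 to 60 Mb, 22 genes) had a median of -0.54, with 17 genes lower without overlap. Khsrp, an RNA-binding protein that promotes messenger RNA decay, lay near it at -0.60 (1892, 1916, 1737 and 1818 against 2594, 2860, 2854 and 2865). Another bright probe set for Khsrp, at a mean signal of 1352, had a difference of -0.91.

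The sixth window also held the largest fitted decrease of all 237 genes. Lrg1, a secreted glycoprotein of neutrophils, read 8.37, 11.6, 292 and 11.4 on the Trib1 hi arrays and 4553, 5258, 5107 and 4703 on the Trib1 null arrays, at least 9.79-fold lower. Ptprs, a receptor tyrosine phosphatase, read 214, 231, 728 and 373 against 3364, 3786, 3758 and 3786, at least 6.68-fold lower. In both genes Trib1 hi 3 was the highest of its group and still far below the other group.

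The last windows had medians from -0.48 to -0.35. The seventh (60 to 70 Mb) held only 8 genes, with a median of -0.39, near which lay Ndufv2, a subunit of respiratory complex I (10526, 10851, 7528 and 9959 against 11156, 13669, 13204 and 13414, or -0.41). Ankrd12, a nuclear ankyrin repeat protein, was its lowest at -1.25, and Ppp4r1, a regulatory subunit of protein phosphatase, its highest at 0.02. The eighth (70 to 80 Mb, 17 genes) had a median of -0.35, shown by Dpy30, a subunit of histone H3 methyltransferase complexes, at -0.35 (8962 ± 1305 against 11315 ± 896). Cdc42ep3, an effector of the small G protein Cdc42, was lowest there at -1.07. The ninth (80 to 90 Mb, 17 genes) had a median of -0.48, the value of Zfp36l2, an RNA-binding protein that promotes decay of AU-rich messages (6967, 6891, 5106 and 6271 against 7803, 9194, 8870 and 9090). Rhoq, another small G protein, was lowest at -1.45 (1694, 1822, 1604 and 1819 against 4501, 4949, 4749 and 4754, 2.73-fold lower). With the windows moved by 5 Mb, the shallowest median was -0.09.

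**Figure D2:**
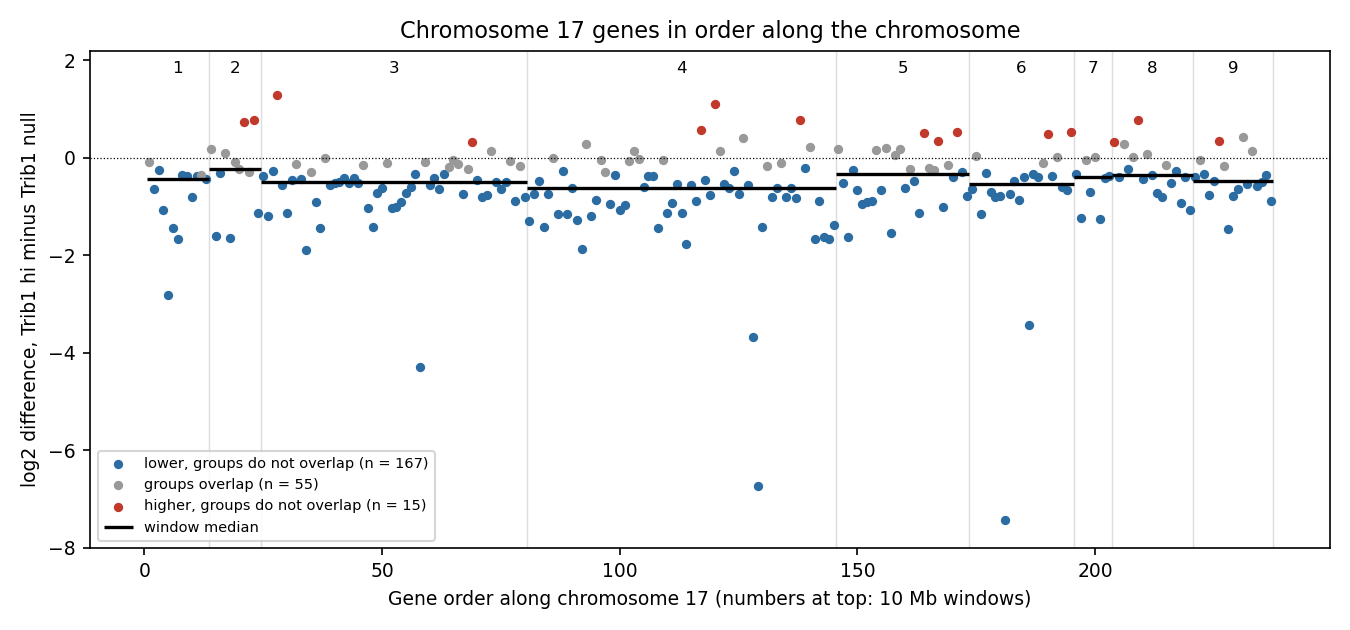
Log2 difference, Trib1 hi minus Trib1 null (vertical axis), of the 237 genes in their order along chromosome 17 (horizontal axis), coloured by whether the 4 arrays of each group overlap; black lines are the medians of the 10 Mb windows numbered at the top. All 9 window medians lie between -0.62 and -0.22, and the 15 genes above 0 without overlap are spread over 7 of the windows.

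Genes above and below 0 were interleaved. The longest run of neighbouring members below 0 was 40 genes, and the longest run above 0 was 2 genes. Of the 237 genes, 155 lay between -1 and 0, 46 lay below -1 and 6 below -2, namely Lrg1, H2-Q5, Dusp1, H2-Q4, Ptprs and Tmem181b-ps. Each of these 6 had at least 3 Trib1 hi arrays under 500. In all, 14 members had a Trib1 hi array under 500 and 0 had such a Trib1 null array. A further 68 probe sets above 1000, for 54 of the members, had a median of -0.41 in the same contrast, and 56 of them were below 0. Their sign was that of the main probe set in 65 of 68.

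Differences were also taken by range of mean signal, a measure that contains the difference itself and on which the members were chosen. Of the 237 members, 45 had a Trib1 hi mean below 1000 and so passed only through the Trib1 null arrays, 43 of them in the dimmest range, and 1 passed only through the Trib1 hi arrays. The medians by range are therefore a description of the chosen genes and do not test a dependence on brightness. The 89 members with a mean signal of 1000 to 2000 had a median of -0.78, the 90 from 2000 to 5000 one of -0.48, the 28 from 5000 to 10000 one of -0.32 and the 30 above 10000 one of -0.31. Genes of other chromosomes had medians of -0.05, 0.09, 0.12 and 0.07 in the same ranges. Chromosome 17 minus the others was thus -0.73, -0.57, -0.44 and -0.38 from the dimmest to the brightest range. Members lower without overlap were 84.3%, 71.1%, 50% and 46.7% in these ranges, against 37.2%, 27.7%, 16% and 8.77% of genes elsewhere. At the signal limit itself, the dimmest members were Map3k4, Traf7 and Mad2l1bp, with mean signals of 1010, 1014 and 1031. Map3k4 and Traf7 were at least 2.57-fold and 2.58-fold lower, and Mad2l1bp had a difference of -0.65. The genes just outside were H2-DMb1, Dus3l and Cep43, at 989, 964 and 957. H2-DMb1 read 503 ± 171 against 1476 ± 132 with Trib1 hi arrays below 500, and the other two had differences of -0.63 and -0.38.

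**Figure D3:**
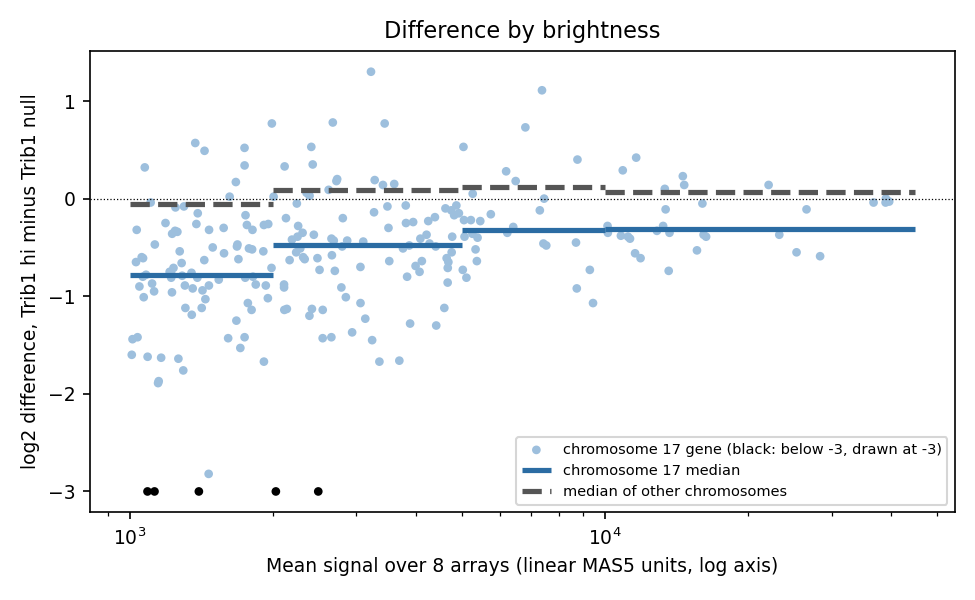
Log2 difference, Trib1 hi minus Trib1 null (vertical axis), of each chromosome 17 gene against its mean signal over 8 arrays (horizontal log axis), with the medians of chromosome 17 (solid) and other chromosomes (dashed) in 4 signal ranges. The chromosome 17 medians run from -0.78 to -0.31 and lie below those of the other chromosomes in each range; the dimmest range holds 43 genes that passed the signal limit only through the Trib1 null arrays.

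Of the genes that ran against the trend, 15 read higher on every Trib1 hi array than on any Trib1 null array, and 13 of them have a common gene name. Zfp947, a zinc finger protein, had the largest difference, with 4925, 4817, 3732 and 4865 against 1877, 1858, 1942 and 1732, 2.46-fold higher. The members beside it, Zfp52 at -0.27 and Gm7072 at -0.56, were lower. 1110038B12Rik, a long noncoding RNA gene in the MHC window, read 11280, 10919, 7668 and 10563 against 4190, 4817, 4768 and 4750, 2.16-fold higher; it was named after its values were seen.

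Pdcd2, which assists assembly of the small ribosomal subunit, read 3406, 3787, 2847 and 3518 against 1779, 2122, 1992 and 1949, 1.72-fold higher. Its neighbours were Psmb1, a proteasome subunit, at -0.28 and Chd1 at -1.12. Wdr43, a component of the nucleolar complex that processes the small subunit's RNA, read 4719, 4964, 3540 and 4185 against 2425, 2614, 2558 and 2507, 1.71-fold higher, with a second probe set at 0.96. Mrps18b, a mitochondrial ribosomal protein within the MHC, read 2706, 2553, 2316 and 2475 against 1419, 1476, 1539 and 1445, 1.71-fold higher, between neighbours at -0.83 and -0.20. In these 3 genes array number 3 was the lowest of the Trib1 hi group. That it still read above every Trib1 null array is the rule by which these genes were chosen, so it adds no support.

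Phf10, a subunit of a chromatin remodelling complex, read 8781, 9310, 6810 and 9154 against 4764, 5163, 5355 and 5060, 1.66-fold higher. Stk19, a nuclear protein encoded in the MHC, was 1.48-fold higher (1640 ± 111 against 1108 ± 85.9). Both were apart from their neighbours, which lay at -0.22 and -0.28 for Phf10 and at -0.89 and -0.46 for Stk19. A pair of myeloid surface receptors was also higher. Trem3, an activating receptor, read 3079, 3026, 2458 and 2849 against 1910, 1986, 1993 and 1981, 1.44-fold higher, next to its relative Treml2 at -0.28. Adgre1, the F4/80 antigen of macrophages and eosinophils, read 6300, 6438, 4816 and 6302 against 3722, 4301, 4196 and 4225, 1.44-fold higher, next to Gpr108 at -0.66.

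The remaining genes of this kind had differences of 0.52 or less. Lonp1, a mitochondrial protease, was 1.40-fold higher (1677 ± 122 against 1197 ± 88.6). Mrps10, of the mitochondrial ribosome, was 1.27-fold higher (2720 ± 247 against 2133 ± 112), beside the cyclin gene Ccnd3 at -1.01. Lrpprc, which stabilises mitochondrial messenger RNAs, was 1.27-fold higher (1952 ± 208 against 1537 ± 64.0). Srpk1, a kinase of splicing factors, had a difference of 0.33, against 0.08 in its second probe set. Tgif1, a homeodomain repressor, had a difference of 0.32 (1195 ± 66.3 against 956 ± 45.8), and 2310039H08Rik, named after its values were seen, one of 0.52. The 15 genes had 30 neighbour positions on the chromosome: 28 were filled by genes below 0, 20 of them lower without overlap, and in 0 cases did one of the 15 adjoin another. Of all members, 84.8% were below 0, 70.5% were lower without overlap and 6.33% higher without overlap. Whether the neighbours differ from members in general was not tested. A further 21 members were above 0 with overlap, among them Mcfd2, a cargo receptor of the secretory pathway (13354 ± 2152 against 9907 ± 747), and the RNA helicase Ddx39b (10015 ± 1667 against 7486 ± 226). Mcfd2 and Ddx39b overlapped only through Trib1 hi 3, at 10155 against up to 10619 and 7546 against up to 7798. The count of 15 thus depends in part on that array.

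**Figure D4:**
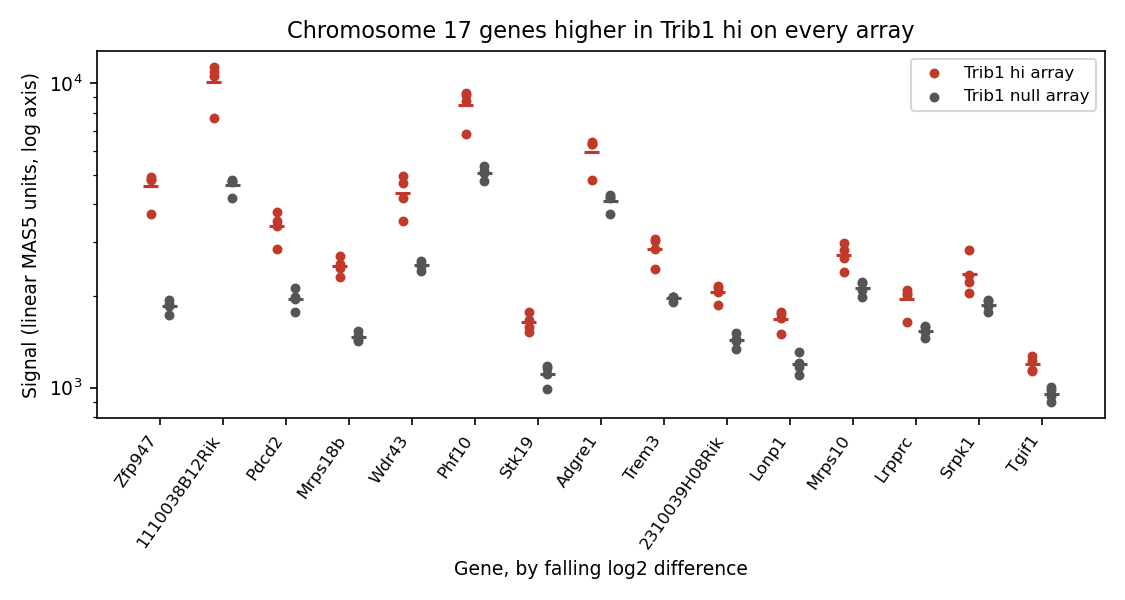
Signals on each array (points, log axis) and group means (bars) of the 15 chromosome 17 genes whose 4 Trib1 hi arrays (red) all read above the 4 Trib1 null arrays (grey), in order of falling log2 difference. The separation is widest for Zfp947 (4585 against 1853) and narrow for Srpk1 and Tgif1.

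By role, the list of antigen presentation genes had the lowest median. Of 19 listed genes on chromosome 17, 10 were members, with a median of -1.0 beside -0.49 for all members and 0.04 for all genes tested; 9 were lower without overlap (70.5% of all members and 15.8% of all genes tested were) and 0 higher. H2-T10, annotated as a transcribed pseudogene, read 1772, 1669, 1678 and 1962 against 5054, 6102, 5777 and 5524, 3.17-fold lower. The class I genes H2-M3 and H2-Q4 were 2.58-fold and at least 4.92-fold lower, and H2-Oa, which regulates class II peptide loading, 2.70-fold lower. H2-Q4 (mean signal 254 against 2542) and H2-Oa (874 against 2348) passed the signal limit only through the Trib1 null arrays. The list median contains both. H2-K1, H2-D1 and H2-T23 were named after their values were seen. The classical class I genes were among the brightest: H2-K1 read 22738 ± 4081 against 33968 ± 3463 (1.51-fold lower), while another bright probe set for it (mean signal 13970) had a difference of -2.30 and a further one (16967) of -0.48. H2-D1 read 20657 ± 3740 against 29932 ± 2911 (1.46-fold lower). H2-T23, a nonclassical class I gene, was the exception at 15787 ± 2572 against 13371 ± 1080, with overlap. H2-Q5, outside the list and likewise annotated as a pseudogene, read 7.68, 8.29, 151 and 8.06 against 2177, 2326, 2240 and 2103, at least 4.42-fold lower. Over the 10 members with an H2 symbol the median was -1.25. H2-Q4, H2-Oa and H2-Q5 are among those of them that passed the signal limit only through the Trib1 null arrays. H2 genes are close copies, so a probe set may read several of them and single values are uncertain.

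Cytosolic ribosomal proteins showed no shift: all 5 members overlapped between groups, with a median of -0.04. Rps10 read 43462, 41170, 28247 and 41432 against 34074, 43034, 40130 and 39951, and Rps28 and Rps18 differed by -0.04 and -0.03. Rpl36 was the lowest of them at -0.11. These 5 are among the brightest probe sets of the chromosome, from 25653 to 39838 in group means, so how far they could show a change on this scale was not tested. Listed genes of ribosome assembly and the mitochondrial ribosome had a median of 0.14 over 9 members, 3 lower and 2 higher without overlap. The sign depended on which members were listed: with 5 further members of such roles (Wdr43, Znrd1, Mrps34, Mrpl18 and Rrp36), added after their values were seen, the median of the 14 was -0.12, with 7 lower and 3 higher, against 70.5% and 6.33% of all members. Pdcd2 (above), at 0.78, was not among the 14, so -0.12 is not the median of all members of such roles. Beside Mrps18b and Mrps10 (above), Rrp1b, a nucleolar protein, read 1662, 1670, 1568 and 1463 against 3198, 3657, 3469 and 3693, 2.2-fold lower, with another bright probe set at -1.80. The mitochondrial ribosomal proteins Mrpl14 and Mrpl28 were 1.88-fold and 1.64-fold lower. The list of chaperones and proteasome subunits had a median of -0.02 over 6 members. Of these, 5 overlapped, such as Tcp1 of the chaperonin (13864 ± 2117 against 12856 ± 868), Stub1 at -0.10 and Psmb1 at -0.28. Psmb1 was the only proteasome subunit among them. The proteasome subunits Psmb8 and Psmb9, listed under antigen presentation, were lower without overlap, at -0.53 and -0.92.

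Signalling and cell cycle genes followed the chromosome. Both lists had a median of -0.44 over 10 members, with 8 and 7 lower without overlap, near the 70.5% of all members (15.8% of all genes tested), and 0 higher. Beside Dusp1 and Map3k4, the kinase Stk38 read 3101, 3070, 2684 and 3283 against 4528, 5255, 5274 and 5383, 1.68-fold lower, and Rgl2, an activator of Ral proteins, was 1.95-fold lower. Ccnd3, a G1 cyclin, read 2019, 1876, 1714 and 1951 against 3583, 3831, 4062 and 3760, 2.02-fold lower. Polh, a DNA polymerase that bypasses damage, was 2.89-fold lower (884 ± 149 against 2535 ± 162), Daxx, a histone chaperone, 1.93-fold and the mismatch repair gene Msh6 1.49-fold lower. None of these 6 genes overlapped between the groups.

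Myeloid and immune effector genes had a median of -0.73 over 9 members, 7 lower and 1 higher (Adgre1) without overlap, where 70.5% of all members and 15.8% of all genes tested were lower. The list does not hold Trem3, which was higher (above). Myo1f, a myosin of neutrophils, read 2436, 2322, 1909 and 2423 against 4962, 5871, 5773 and 5424, 2.43-fold lower. Ubash3a, a regulator of lymphocyte receptor signalling, was at least 2.55-fold lower, and Ier3, an immediate early gene, 1.76-fold. Metabolic and mitochondrial genes had a median of -0.45 over 12 members, 8 lower and 1 higher (Lrpprc) without overlap, near the 70.5% of members. Vegfa, the endothelial growth factor, read 1449, 1238, 1411 and 1326 against 2395, 2544, 2465 and 2639, 1.85-fold lower. Eci1, of fatty acid oxidation, was 1.87-fold lower and Ndufb10, of respiratory complex I, 1.47-fold.

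Splicing genes had a median of -0.29 over 10 members, 6 lower and 1 higher (Srpk1) without overlap, beside 70.5% and 6.33% of all members and 15.8% and 13.5% of all genes tested. Cdc5l, a core component of the spliceosome, read 3890, 3704, 3101 and 3888 against 5239, 6036, 5981 and 5620, 1.57-fold lower, and Ppil1 was 1.40-fold lower. Chromatin and transcription genes had a median of -0.23 over 9 members, 5 lower and 1 higher (Tgif1) without overlap, beside the same shares. This list does not hold Phf10, which was higher (above). Ehmt2, a histone H3 methyltransferase, was 1.69-fold lower (1001 ± 77.4 against 1697 ± 152) and the retinoid receptor Rxrb 1.30-fold. The lists differed in brightness, and the order of their medians was not tested. Other lists also hold members that passed the signal limit only through the Trib1 null arrays. Among these are Lrg1, Ubash3a, Dusp1, Map3k4, Rgl2, Polh, Daxx, Chd1 and Acat3. The medians by role therefore describe the chosen genes only.

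**Figure D5:**
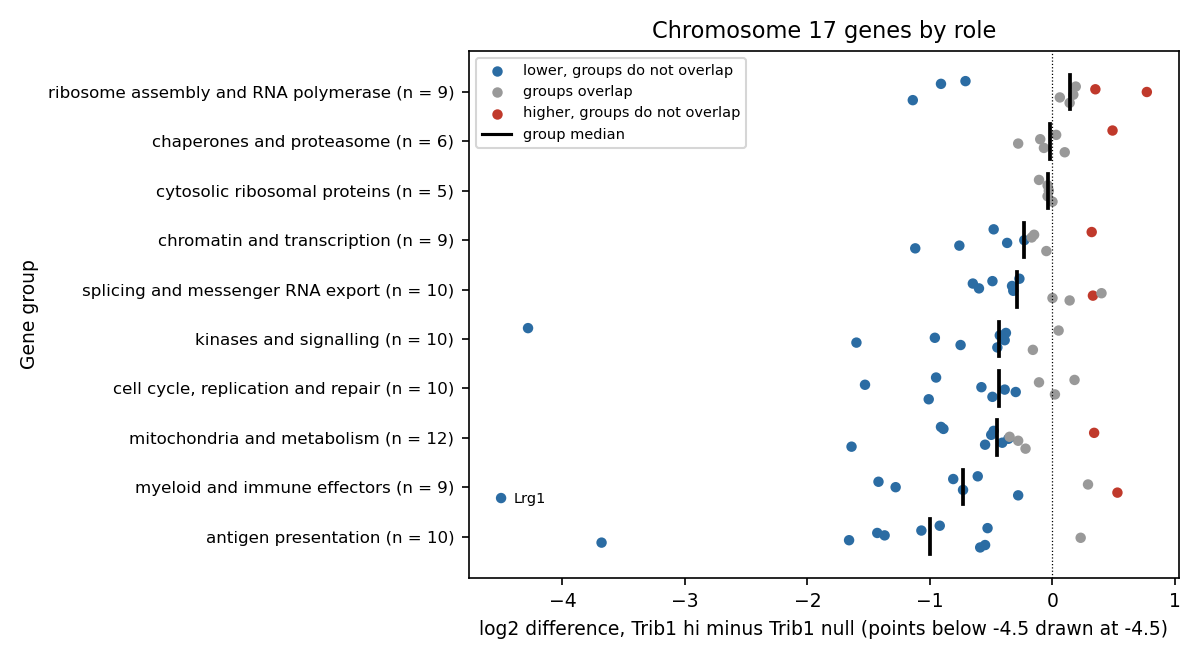
Log2 difference, Trib1 hi minus Trib1 null (horizontal axis), of chromosome 17 genes in 10 groups by role (vertical axis), coloured by whether the groups of arrays overlap; black bars are group medians and points beyond the axis are drawn at its left end with their names. Medians run from -1.0 for antigen presentation to 0.14 for the group of ribosome assembly, RNA polymerase and mitochondrial ribosomal genes. The latter is -0.12 with 5 further members that are not plotted in that group and do not include Pdcd2. Cytosolic ribosomal proteins cluster at 0.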

How the data were processed

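The deposited values are linear intensities of 45141 probe sets on 8 arrays, made with MAS5 per the submitters' processing notes; the version was not given in the sources used here. Labelling started from 100 ng of total RNA, per the labels' protocols. Groups came from the sample titles. Of 29449 annotated probe sets, 28898 had 1 symbol and 551 several; the brightest probe set stood for each of 17097 genes. Chromosome and gene order came from RefSeq's GRCm38.p6 table by Entrez ID, which placed all but 161 genes; the labels name no build.

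Intensities were used as log2(intensity + 2.71), the added value being their 25th percentile. Genes with a mean log2 value over 3.01 (40th percentile) were kept, 12250 in all; all 237 members passed. limma 3.58.1 in R 4.3.3 (lmFit, eBayes with trend) compared 4 with 4 arrays, two-sided, with Benjamini-Hochberg adjustment over all genes, tested first on simulated data. Folds are ratios of geometric means with intensities below 500 set to 500. The number of arrays limits the precision. Members, lists, windows and limits were chosen with earlier results of these data known. Named genes are up to 15 that read higher without overlap, the 10 largest decreases, the typical and extreme genes of each window, up to 4 per list and those at the signal limit; RIKEN and Gm names were skipped unless stated. Alternatives were quantile normalization, centring, another added value, a floor, no filter, other signal limits, the mean of probe sets, shifted windows, a longer ribosome list (added later), a replicate block and each array left out.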

Additional observations from a re-analysis of the deposited data

Results flagged for a closer look

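In 19 of 150 sets of 4 arrays, 1 array lay farther from the other 3 than Dixon's 95% limit. Chance alone gives about 1 in 20 for independent sets. These sets share the same arrays, so a shift of 1 array repeats over many of them, and their number was not tested. The outlying array was Trib1 hi 3 in 14 of the 19 and Trib1 null 1 in 5. Trib1 hi 3 was the lowest of its group for 10 bright genes. It read 28247 for Rps10 (the others at least 41170), 18848 for Rpl36 (27142), 10722 for Tcp1 (14497), 10155 for Mcfd2 (14058) and 7546 for Ddx39b (10474). It also read 7254 for Tomm6 (10429), 7022 for Dpy30 (9362), 4816 for Adgre1 (6300), 3732 for Zfp947 (4817) and 1643 for Lrpprc (2023). The same array was the highest of its group for 4 dim genes: 1037 for Rgl2 (the others at most 798), 865 for Gpsm3 (529.8), 292 for Lrg1 (11.6) and 151 for H2-Q5 (8.29). Trib1 null 1 was the lowest of its group for 5 genes, at 9971 for Dpy30 (the others at least 11735), 4528 for Stk38 (5255), 3364 for Ptprs (3758), 2594 for Khsrp (2854) and 1910 for Trem3 (1981). These 2 arrays also had the highest medians of their groups over all probe sets, 68.3 and 9.56.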

How the results depend on the processing

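Over the alternatives the chromosome 17 median stayed below 0. It was -0.57 with arrays centred on bright genes of other chromosomes, -0.60 for the 300 genes above a mean signal of 500 and -0.39 for the 148 above 2000, and ran from -0.52 to -0.42 with 1 array left out. Quantile normalization gave -0.50. Members called lower ranged from 146 to 169 and called higher from 14 to 30 with 1 array left out, with 30 when Trib1 hi 3 was left out and 17 with all arrays. Above 2000, 91 were called lower and 11 higher among fewer genes. All 9 window medians were below 0 with each array left out, the lowest from -0.67 to -0.61 and the highest from -0.26 to -0.14. The highest was 0.01 above 2000 (the second window) and -0.09 with windows shifted by 5 Mb. Of 1110 recomputed differences of 74 named genes, 1086 moved by less than 1 SD, 24 moved by more and 0 called ones changed sign. Over all genes tested, 2409 were called lower and 1363 higher, against 3352 and 3357 after quantile normalization and 3768 and 2103 without Trib1 hi 3; the cause was not tested. Without that array the median of all genes tested was -0.32, against 0.04 with it. At the same signal limit, chromosome 17 minus other bright genes lay between -0.56 and -0.52 over the settings. Centring, dropping the filter on dim genes and the replicate block cannot move this value, so they do not test it. By range of mean signal it ran from -0.73 to -0.38 (above). No pairing of arrays by replicate number was assumed, and whether the numbers pair them was not settled. Deviations of arrays with the same number correlated at -0.507, 0.487, -0.294 and 0.367. With a replicate block, 155 members were called lower and 16 higher. Each number has 1 array in each group, so the block cannot change the members' median of -0.49. Signals below 500, which differ between arrays, limit the sizes of the largest decreases.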
